A study of Mus musculus with 15 samples.

Results

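The 8 genes described here encode enzymes that turn cholesterol into conjugated bile acids in the liver: Cyp7a1, Cyp8b1, Cyp27a1, Cyp7b1, Hsd3b7, Akr1d1, Slc27a5 and Baat. They were picked out by gene symbol and are 8 of the 35275 genes in the deposited count and FPKM tables. All 8 passed the filter on low counts that left 13837 genes for testing. Liver RNA came from C57BL/6 mice that were 3 months old when the diets began and 6 months old at the end, in 3 groups of 5 libraries. AL mice had free access to food, IF16 mice were fasted for 16 h as intermittent fasting, and EOD mice were fasted for 24 h every other day, each regimen lasting 3 months. Nothing in the labels states that each library is a different mouse, so the p-values reflect no more than library-to-library spread, part of which may be technical. The labels also do not state at what clock hour the livers were taken, or how long after the last meal. Regimen, clock time and fed state thus cannot be told apart in any comparison between groups.

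Bile acids are made by hepatocytes along a classic route, which starts at the sterol ring with Cyp7a1, and an alternative route, which starts at the side chain with Cyp27a1 and continues with Cyp7b1. Hsd3b7 and Akr1d1 rearrange the ring on both routes, Cyp8b1 adds the hydroxyl group that leads to cholic acid, and the side chain is activated to a coenzyme A thioester and shortened in peroxisomes before Baat joins the product to taurine or glycine. Slc27a5 makes such thioesters from unconjugated bile acids, chiefly those that return from the gut. Bile acids returning from the gut repress Cyp7a1 through the nuclear receptor FXR, by way of SHP in the liver and of the intestinal hormone FGF15 acting on its receptor at the hepatocyte surface.

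Library totals lay between 28129883 and 38147534 counts, and the members held 434 to 36239 counts per library, so counting error is small beside the spread between libraries. In AL replicates 4 and 5 the acute-phase transcript Saa1 stood at 2807 and 5607 CPM (read counts scaled to a common library total with TMM factors), against 27.9 to 30.5 CPM in the other AL libraries and 14.9 to 167 CPM in IF16 and EOD. Differences of members and calls of other pathway genes that rest on those libraries are given with and without them. Calls of cell type markers and likeness of expression are given with all libraries only. Counts of mitochondrially encoded genes made up 11.5% ± 2.16 (SD, n = 5) of the total in AL, 10.4% ± 1.11 in IF16 and 6.89% ± 1.87 in EOD. Summed over 6 hepatocyte markers, levels were 86239 to 106224 CPM in AL, 102942 to 132523 CPM in IF16 and 86326 to 114058 CPM in EOD. Alb alone averaged 63765 CPM in AL, so this sum mostly follows Alb. None of the 6 passed the test in IF16 against AL, and 1 passed as lower in EOD against AL and 1 in EOD against IF16. From AL to EOD, mean Ttr went from 9941 to 7479 CPM, while mean Cps1 went from 1189 to 1660 CPM. Sinusoidal endothelium markers (6 genes) summed to 66.3 to 121 CPM in AL, 144 to 170 in IF16 and 151 to 179 in EOD. Of these, 4 of 6 passed the test as higher in IF16 than in AL and 5 of 6 as higher in EOD. Beside all marker counts given here, 1.4% of all tested genes passed as higher and 2.1% as lower in IF16 against AL. The shares were 17.6% in each direction in EOD against AL, and 7.96% higher and 8.15% lower in EOD against IF16. The 6 stellate and fibroblast markers summed to 102 to 176 CPM in AL, 129 to 172 CPM in IF16 and 167 to 248 CPM in EOD, with 2 called higher and 1 lower in EOD against AL. The 4 neutrophil markers summed to 1.26 to 28.1 CPM in AL, where S100a8 was 12.3 and 9.96 CPM in replicates 4 and 5 and at most 1.04 CPM in the others, and to 1.09 to 3.84 CPM in IF16 and EOD. Both tested neutrophil markers were called lower in EOD than in AL, and S100a8 in IF16. The 4 adipocyte markers summed to 0.864 to 11.2 CPM in AL and 0.296 to 1.42 CPM in the fasting groups, and Cfd, the tested marker, was called lower in each. Of the 4 pancreas markers (11.3 to 29.5 CPM in all), Prss1 had no count in any library, and Cela1, at 21.8 CPM in AL, 19.4 in IF16 and 15.7 in EOD, was called lower in EOD than in AL. Of the 4 intestine markers (70.9 to 165 CPM in all), Fgf15 had no count in any library, and Fabp2, at 110.0 CPM in AL, 97.1 in IF16 and 109.5 in EOD, passed in no comparison. Cholangiocyte markers gave 1 call in EOD against AL, as higher, and markers of Kupffer cells and lymphocytes gave none in any comparison. Whether the mitochondrial share or any of these marker levels bears on the results below was not tested. In bulk tissue, fewer cells of a type and less RNA per cell cannot be told apart.

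Promoter sequence is shown for 3 members, because the RefSeq promoter table (GRCm38.p6) held 4 of the 8 and Cyp8b1 carried matches to motifs of liver factors that are known for this pathway. Each line gives the 250 bases before the annotated start of transcription, 5′ to 3′ on the gene's own strand, with motif matches in capitals.
Cyp8b1, chr9:121916306-121916555: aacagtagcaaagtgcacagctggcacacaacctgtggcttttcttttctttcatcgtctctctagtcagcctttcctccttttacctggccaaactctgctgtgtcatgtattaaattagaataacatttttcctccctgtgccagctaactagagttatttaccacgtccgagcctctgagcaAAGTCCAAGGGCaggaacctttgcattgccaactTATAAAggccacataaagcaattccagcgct
Cyp27a1, chr1:74713285-74713534: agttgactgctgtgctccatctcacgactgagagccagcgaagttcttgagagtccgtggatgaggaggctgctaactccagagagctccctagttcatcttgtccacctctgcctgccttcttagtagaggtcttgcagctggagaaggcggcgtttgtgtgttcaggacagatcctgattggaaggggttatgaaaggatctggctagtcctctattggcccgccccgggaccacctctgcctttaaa
Akr1d1, chr6:37529923-37530172: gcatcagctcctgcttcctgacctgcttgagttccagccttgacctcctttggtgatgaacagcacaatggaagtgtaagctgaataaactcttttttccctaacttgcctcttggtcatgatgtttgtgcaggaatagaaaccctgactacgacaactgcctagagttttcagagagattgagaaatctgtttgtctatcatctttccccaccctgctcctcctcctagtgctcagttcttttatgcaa
The letters searched, on both strands, were AAGTCCA for HNF4A, CAAGGNC for NR5A2 and TATAAA for a TATA box. In Cyp8b1, AAGTCCA lay 65 to 59 bases before the start, CAAGGGC lay 60 to 54 bases before it, so that the matches share 2 bases, and TATAAA lay 31 to 26 bases before it. Among 32851 promoter windows of the same length, AAGTCCA was present in 3.36%, CAAGGNC in 15% and TATAAA in 12.4%. The windows of Cyp27a1, Akr1d1 and Hsd3b7 held none of these letters, and the window of Hsd3b7 is not printed because exons of other transcripts reach into it. A match in these letters is a description and not a measured binding site.

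Under every-other-day fasting, Cyp7a1 fell while 4 other members rose relative to free feeding: Cyp8b1, Hsd3b7, Slc27a5 and Baat. Of the 8 members, 5 passed the test in EOD against AL, at an edgeR adjusted p under 0.05, where 35.2% of all tested genes did so, 17.6% as higher and 17.6% as lower. The same 5 members had EOD and AL libraries that did not overlap, against 18.6% of all genes. The median log2 fold change of the 8 members was 0.40, and that of all tested genes was -0.01. In IF16 against AL, 2 members passed, Akr1d1 and Slc27a5, both higher, against 3.5% of all genes (1.4% as higher and 2.1% as lower), and the libraries of 2 members did not overlap, against 5.78% of all genes. The median was 0.26 for the members. In EOD against IF16, 2 members passed, Cyp7a1 as lower and Hsd3b7 as higher, against 16.1% of all genes (7.96% higher, 8.15% lower), and only the libraries of Cyp7a1 did not overlap, where 10.9% of all genes had that property. The median was 0.15 for the members. The comparisons with AL share their control libraries, so their values are given side by side and not as separate evidence. Without AL replicates 4 and 5, no member passed in IF16 against AL, and 4 passed in EOD against AL (3 higher, 1 lower), Hsd3b7 being lost.

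**Figure D1:**
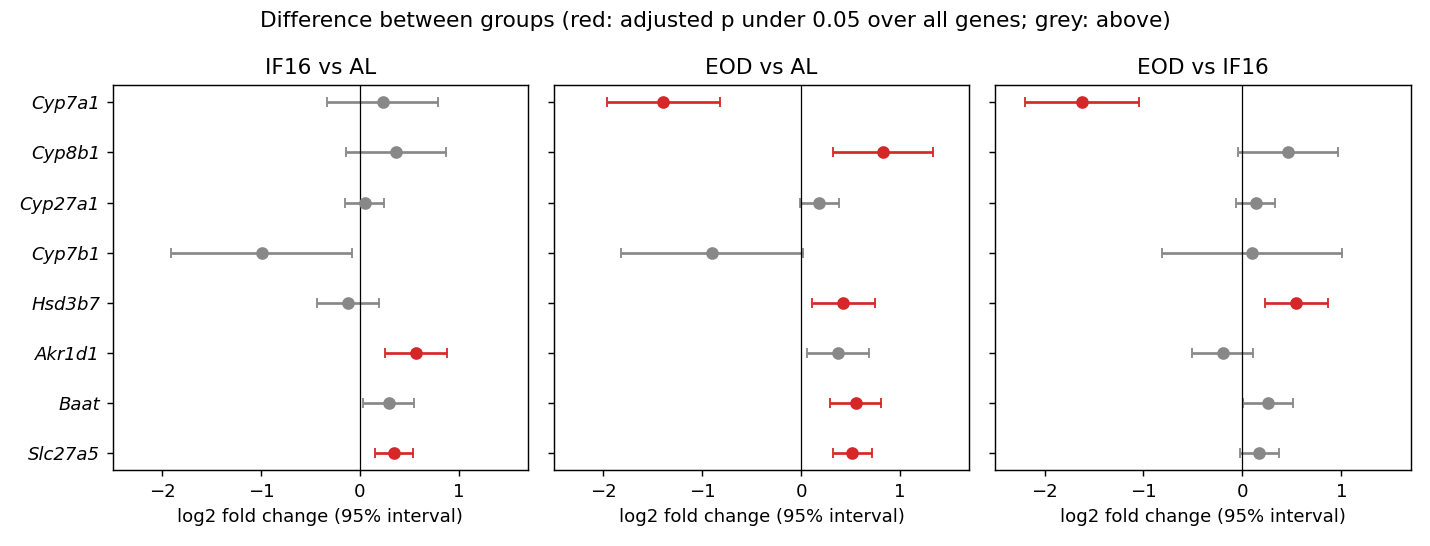
Log2 fold change of each member (x axis, points) with its 95% interval (bars) in IF16 against AL, EOD against AL and EOD against IF16, with edgeR adjusted p under 0.05 in red and above in grey. Cyp7a1 lies at -1.39 in EOD against AL and -1.62 in EOD against IF16, and the other points past the threshold lie between 0.35 and 0.83.

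Cyp7a1 encodes cholesterol 7-alpha-hydroxylase, the rate-limiting enzyme of the classic route, and lies on chromosome 4 (mm10, 6265612 to 6275633, minus strand; ENSMUSG00000028240). Its level was 45.4, 41.2, 72.4, 46.8 and 40.7 CPM in AL replicates 1 to 5. In IF16 it was 111, 42.2, 39.0, 47.6 and 49.1 CPM. In EOD it was 18.1, 19.97, 15.4, 24.7 and 15.7 CPM. Every EOD library lay below every library of the other groups, while AL and IF16 overlapped, with IF16 replicate 1 far above the rest. The group means were 49.3 ± 13.2 CPM in AL (SD, n = 5), 57.8 ± 29.99 in IF16 and 18.8 ± 3.80 in EOD. Cyp7a1 was 2.63-fold lower in EOD than in AL (log2 fold change -1.39, SE 0.27, adjusted p = 0.00113) and 3.08-fold lower than in IF16 (-1.62, SE 0.27, adjusted p = 0.00121). These calls held in each of 25 alternative analyses, at -1.47 against AL and -1.60 against IF16 without AL replicates 4 and 5. IF16 and AL gave a log2 difference of 0.23 with a 95% interval of -0.33 to 0.79 (adjusted p = 0.702), which became -0.15 without IF16 replicate 1.

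Cyp8b1 encodes sterol 12-alpha-hydroxylase, whose activity sets the share of cholic acid in the pool, and is a gene without introns on chromosome 9 (121914356 to 121916305, minus strand; ENSMUSG00000050445), downstream of the first promoter sequence printed above. Its level was 298, 323, 313, 199 and 121 CPM in AL replicates 1 to 5. IF16 libraries held 286, 435, 262, 363 and 268 CPM. EOD libraries held 509, 525, 499, 367 and 323 CPM. The low AL values were those of replicates 4 and 5, the libraries with high Saa1, and the lowest EOD library (322.6 CPM) lay just above the highest AL library (322.5 CPM). Cyp8b1 rose 1.77-fold in EOD over AL (log2 fold change 0.83, SE 0.24, adjusted p = 0.0137). Without AL replicates 4 and 5 the log2 fold change was 0.54 (adjusted p = 0.041), and the call also held in the other alternatives. IF16 differed from AL by 0.36 (95% interval -0.14 to 0.87, adjusted p = 0.451), and by 0.06 without AL replicates 4 and 5 (adjusted p = 0.913). EOD exceeded IF16 by 0.46 (95% interval -0.04 to 0.97, adjusted p = 0.196).

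Cyp27a1 encodes the mitochondrial sterol side-chain hydroxylase that opens the alternative route, on chromosome 1 (74713574 to 74737892, plus strand; ENSMUSG00000026170). Its coefficient of variation was 4.45% in AL and 4.49% in IF16, near the values of Slc27a5 (4.53% and 3.14%). The AL libraries held 281 to 318 CPM (median 298), the IF16 libraries 293 to 331 CPM (median 307) and the EOD libraries 270.3 to 369 CPM (median 361). All 3 groups overlapped. The EOD values were 361, 329, 365, 270.3 and 369 CPM, so that replicate 4 alone lay below the AL libraries. The log2 difference was 0.18 between EOD and AL (SE 0.09, 95% interval -0.01 to 0.38, adjusted p = 0.136) and 0.05 between IF16 and AL (95% interval -0.15 to 0.24, adjusted p = 0.84). Without EOD replicate 4, Cyp27a1 passed in EOD against AL (log2 fold change 0.26, adjusted p = 0.0282).

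Cyp7b1 encodes oxysterol 7-alpha-hydroxylase, the next step of the alternative route, on chromosome 3 (18071950 to 18243338, minus strand; ENSMUSG00000039519). It varied most between AL libraries, at 136, 82.3, 196, 477 and 471 CPM in replicates 1 to 5. In IF16 it was 219.7, 107, 111, 139 and 106 CPM. In EOD it was 114, 208, 150.3, 152 and 105 CPM. The high values were again those of AL replicates 4 and 5, here in the opposite direction to Cyp8b1, and AL replicates 1 to 3 overlapped IF16 and EOD. The coefficient of variation in AL was 69.2%, against 4.45% for Cyp27a1. No comparison passed the test. For EOD against AL the fitted log2 difference was -0.90 (SE 0.43, adjusted p = 0.117). Without AL replicates 4 and 5 it was 0.11 (adjusted p = 0.807). IF16 against AL gave -0.99 (SE 0.43, adjusted p = 0.229) with all libraries and -0.0039 without those replicates (adjusted p = 0.997). EOD against AL passed as lower without AL replicate 2 (-1.13, adjusted p = 0.0313).

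**Figure D2:**
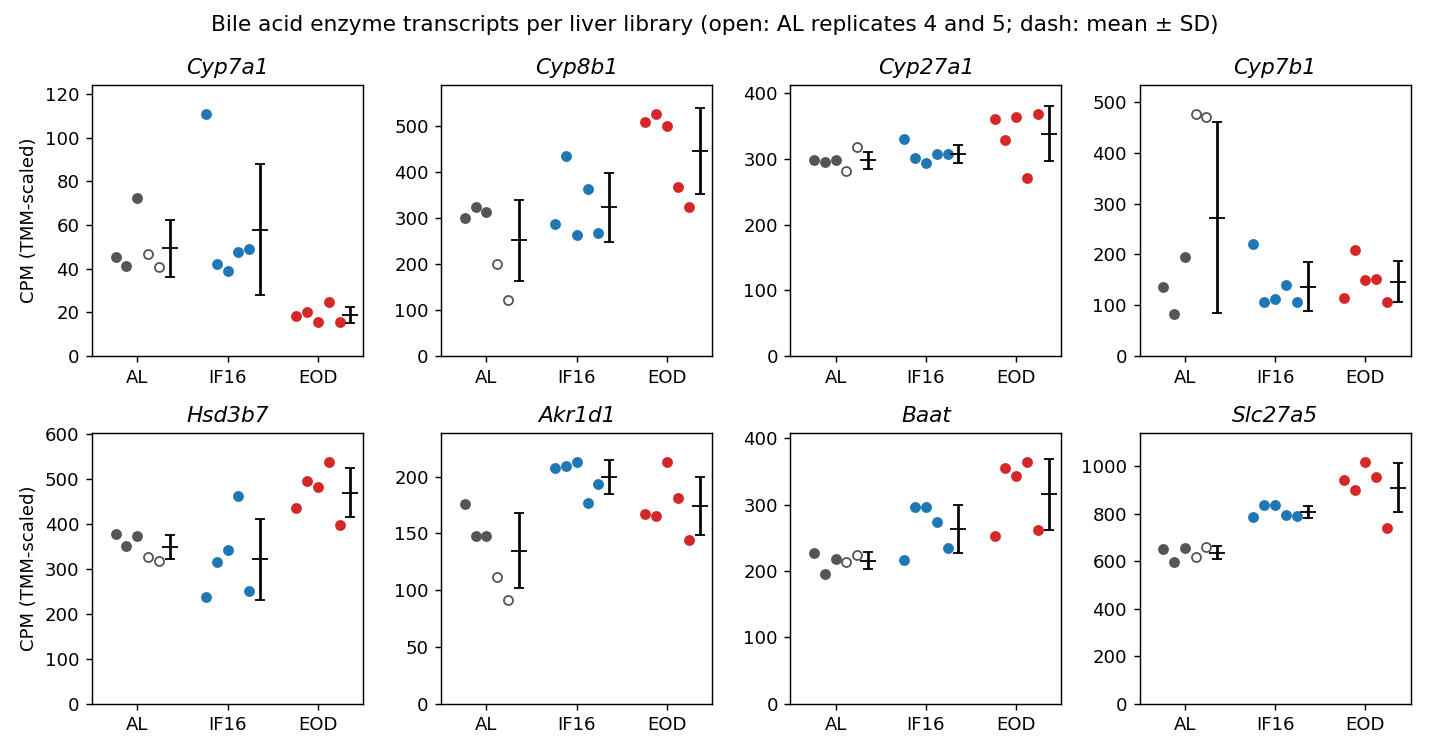
TMM-scaled CPM (y axis, from 0) of each member in the 5 libraries of AL, IF16 and EOD, with the mean ± SD beside each group and AL replicates 4 and 5 as open circles. The EOD points of Cyp7a1 (15.4 to 24.7 CPM) lie below all others, while the open circles are the highest for Cyp7b1 (477 and 471 CPM) and the lowest of AL for Cyp8b1 and Akr1d1.

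Hsd3b7 encodes the hydroxysteroid dehydrogenase that oxidizes the ring after 7-alpha-hydroxylation, and its deposited model spans chromosome 7, 127785608 to 127803802, plus strand (ENSMUSG00000042289). In AL replicates 1 to 5 it stood at 378, 352, 373, 328 and 317 CPM. The IF16 values were 238, 316, 342, 462 and 250.3 CPM. The EOD values were 435, 497, 482, 539 and 398 CPM. All EOD libraries lay above all AL libraries, while IF16 replicate 4 reached into the EOD range. Hsd3b7 rose 1.35-fold in EOD over AL (log2 fold change 0.43, SE 0.15, adjusted p = 0.0342) and 1.46-fold over IF16 (0.55, SE 0.15, adjusted p = 0.0198). The call against AL was lost in 8 of 25 alternatives, including the analysis without AL replicates 4 and 5 (0.38, adjusted p = 0.116), and the call against IF16 was lost without IF16 replicate 5 (adjusted p = 0.0611). The deposited model overlaps Setd1a on the same strand, which had a mean of 301 counts against 12421 for Hsd3b7, so that reads in the shared stretch could be assigned to neither or either gene.

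Akr1d1 encodes the steroid 5-beta-reductase that gives bile acids their bent ring, on chromosome 6 (37530173 to 37568815, plus strand; ENSMUSG00000038641), with the third promoter sequence above. In AL replicates 1 to 5 its level was 175, 148, 147, 111 and 91.5 CPM. In IF16 it was 207, 209, 213, 176 and 193 CPM. In EOD it was 167, 165, 213, 181 and 144 CPM. AL replicates 4 and 5 were the lowest of all libraries, as they were for Cyp8b1, and the lowest IF16 library (176.4 CPM) lay about level with the highest AL library (175.4 CPM). Akr1d1 rose 1.48-fold in IF16 over AL (log2 fold change 0.57, SE 0.15, adjusted p = 0.0406). That call was lost in 14 of 25 alternatives and stood at 0.36 (adjusted p = 0.171) without AL replicates 4 and 5. EOD against AL gave 0.37 (95% interval 0.06 to 0.68, adjusted p = 0.06), which passed in 4 alternatives and stood at 0.18 (adjusted p = 0.317) without AL replicates 4 and 5.

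Slc27a5 encodes the bile acid-coenzyme A ligase of the endoplasmic reticulum, which also takes part in fatty acid uptake, on chromosome 7 (12988346 to 12998192, minus strand; ENSMUSG00000030382). Its level was 653, 596, 657, 616 and 661 CPM in AL replicates 1 to 5. Under IF16 the level was 787, 838, 836, 795 and 791 CPM. Under EOD the level was 942, 900.1, 1019.99, 954 and 739.5 CPM. Neither IF16 nor EOD overlapped AL, and EOD replicate 5, the EOD library with the highest mitochondrial share (10.1%), lay below every IF16 library. Slc27a5 rose 1.43-fold in EOD over AL (log2 fold change 0.52, SE 0.09, adjusted p = 0.000465), a call that held in all 25 alternatives, at 0.55 without AL replicates 4 and 5. It rose 1.27-fold in IF16 over AL (0.35, SE 0.09, adjusted p = 0.0457), and this call was lost in 18 of 25 alternatives although the log2 fold change stayed between 0.32 and 0.36.

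Baat encodes the amino acid N-acyltransferase that conjugates bile acids, chiefly to taurine in mice, on chromosome 4 (49489422 to 49506557, minus strand; ENSMUSG00000039653). In AL replicates 1 to 5 it was 227, 195, 218, 214 and 224 CPM. Baat reached 217, 296, 296, 273 and 235 CPM in IF16. It reached 252, 355, 343, 365 and 262 CPM in EOD. AL was tight, at 215 ± 12.6 CPM (SD, n = 5), and every EOD library lay above it, with EOD replicates 1 and 5 within the IF16 range. Baat rose 1.46-fold in EOD over AL (log2 fold change 0.55, SE 0.12, adjusted p = 0.00241), and the call held in all 25 alternatives, at 0.59 without AL replicates 4 and 5. IF16 against AL gave 0.29 (95% interval 0.03 to 0.55, adjusted p = 0.208), and EOD against IF16 gave 0.26 (95% interval 0.00 to 0.52, adjusted p = 0.156). Without EOD replicate 5 the difference of EOD from IF16 passed for Baat (0.34, adjusted p = 0.0461) and Slc27a5 (0.26, adjusted p = 0.0229).

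Levels between genes were compared in FPKM, which divides counts by gene length and by the library total. Slc27a5 was the highest member and Cyp7a1 the lowest in each of the 15 libraries. Mean levels in AL were 279 FPKM for Slc27a5, 158 for Cyp27a1, 130 for Cyp8b1, 124 for Cyp7b1, 111 for Baat, 67.8 for Hsd3b7, 50.4 for Akr1d1 and 11.8 for Cyp7a1. In EOD the order was Slc27a5 at 396 FPKM, Cyp8b1 at 227, Cyp27a1 at 179, Baat at 161, Hsd3b7 at 90.1, Cyp7b1 at 66.8, Akr1d1 at 64.1 and Cyp7a1 at 4.48. In IF16, Slc27a5 stood at 353 FPKM, Cyp8b1 at 165, Cyp27a1 at 163, Baat at 135, Akr1d1 at 73.9, Cyp7b1 at 63.6, Hsd3b7 at 61.6 and Cyp7a1 at 14.03. Neighbours in these orders overlapped between libraries, except at 3 steps in each group: below Slc27a5, below Baat and above Cyp7a1. The place of Hsd3b7 depends on its gene model. The deposited length is 5188 bases, against 2769 exon bases in GENCODE M21, whose model starts at 127800604, and with the shorter length its mean would be 127 FPKM in AL, 115 in IF16 and 169 in EOD.

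**Figure D3:**
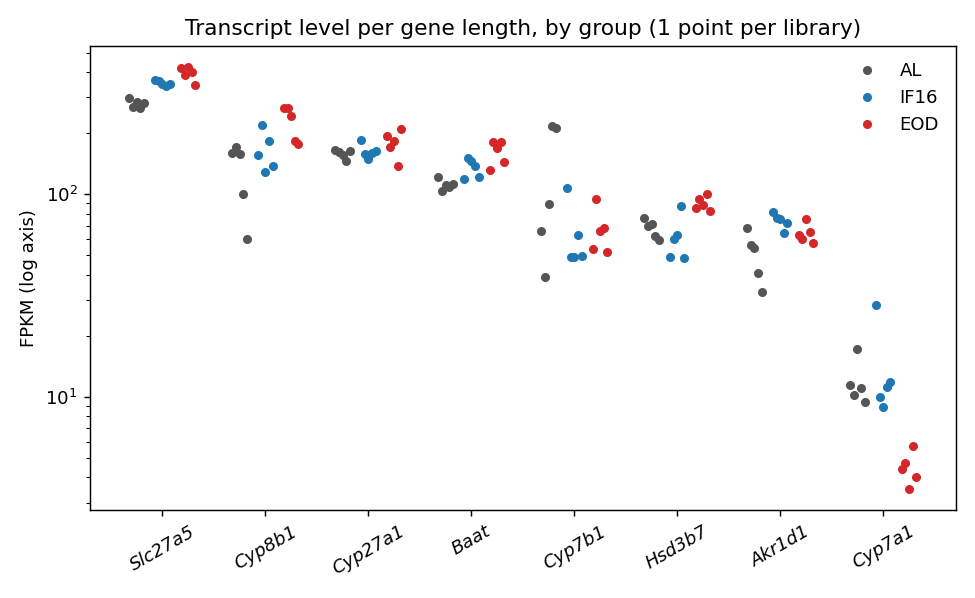
FPKM on a log axis for each member, with 1 point per library in AL, IF16 and EOD and genes ordered from high to low. Slc27a5 is at the top in every library and Cyp7a1 at the bottom, with its EOD points between 3.52 and 5.72 FPKM.

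The FPKM ratio of Cyp8b1 to Cyp7a1 within a library separated EOD from the rest. In EOD against AL, the log2 fold change was -1.39 for Cyp7a1 and 0.83 for Cyp8b1. In EOD against IF16, it was -1.62 for Cyp7a1, while Cyp8b1 did not pass (0.46, adjusted p = 0.196). The ratio of Cyp8b1 to Cyp7a1 was 14.1, 16.7, 9.25, 9.09 and 6.33 in AL replicates 1 to 5, 5.51, 22.0, 14.4, 16.3 and 11.7 in IF16, and 60.2, 56.3, 69.2, 31.8 and 44.0 in EOD. The lowest EOD library thus lay above the highest of the other 10 libraries. The ratio of Cyp27a1 to Cyp7a1 had medians of 14.5 in AL, 14.2 in IF16 and 44.0 in EOD. Again every EOD library (24.1 to 52.1) lay above all others (6.57 to 17.2). Cyp27a1 itself passed in no comparison (0.18 in EOD against AL, adjusted p = 0.136), while Cyp7a1 fell by 1.39 on the log2 scale. This ratio therefore mostly follows the fall of Cyp7a1 and does not measure the use of either route. The ratio of Cyp7b1 to Cyp7a1 ran from 11.9 to 20.1 in EOD and from 3.82 to 5.62 in IF16, while AL held 3.85 to 5.76 in replicates 1 to 3 and 19.6 and 22.3 in replicates 4 and 5. The ratio of Slc27a5 to Baat, the paired conjugation enzymes, had similar medians of 2.499 in AL, 2.47 in IF16 and 2.39 in EOD. These ratios were built from the levels above and carry no test. Summed over the 8 members, FPKM lay between 878 and 967 in AL libraries, between 953 and 1091 in IF16 and between 1072 and 1258 in EOD, so the lower Cyp7a1 level came with a larger sum, in which Slc27a5 weighs most.

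**Figure D4:**
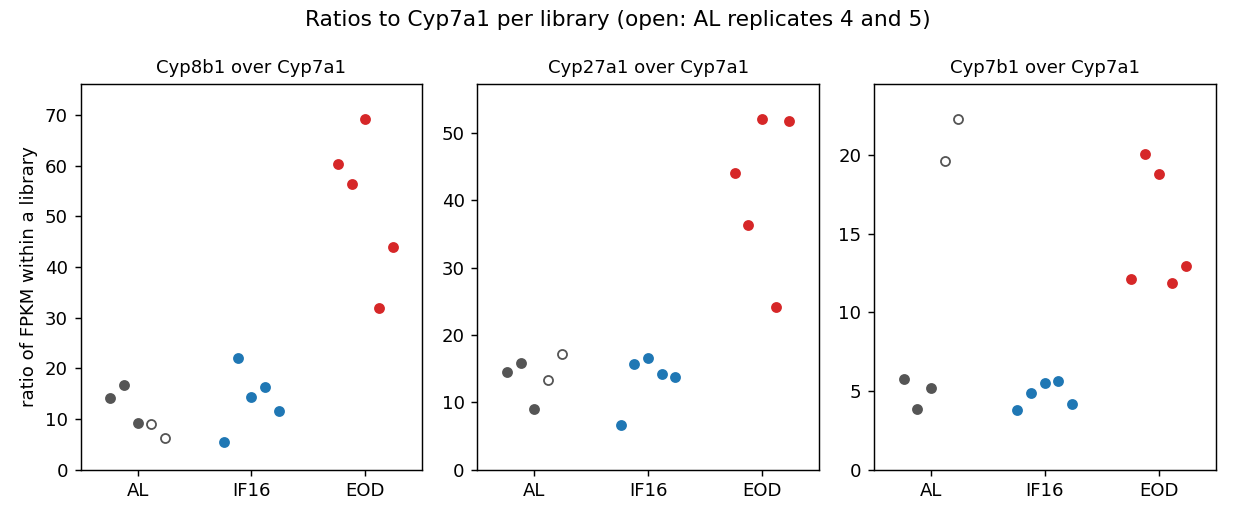
FPKM of Cyp8b1, Cyp27a1 and Cyp7b1 divided by that of Cyp7a1 within each library (y axis, from 0), by group, with AL replicates 4 and 5 as open circles. All EOD points of the ratio of Cyp8b1 to Cyp7a1 (31.8 to 69.2) lie above those of AL and IF16, while for Cyp7b1 the open circles (19.6 and 22.3) reach the EOD range.

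Among other enzymes and carriers of bile acid synthesis, 17 of 18 listed genes were tested, and in EOD against AL 6 passed as higher and 3 as lower, with a median log2 fold change of 0.17, where 17.6% of all genes passed in each direction. Stard4, a cholesterol transfer protein, was 104 ± 18.0 CPM in AL (SD, n = 5), 52.5 ± 13.2 in IF16 and 28.4 ± 6.42 in EOD. It fell in EOD (-1.87, adjusted p = 3.64e-06) and IF16 (-0.99, adjusted p = 0.0081) relative to AL. Cyp39a1, which hydroxylates a brain-derived oxysterol on its way to bile acids, rose in both fasting groups, from 5.57 ± 2.11 CPM in AL to 15.5 ± 2.09 in IF16 and 15.9 ± 3.24 in EOD (adjusted p = 0.00134 and 7.82e-05). Slc27a2, a peroxisomal coenzyme A ligase for bile acid precursors and long fatty acids, also rose in both, with log2 fold changes of 0.59 in IF16 (adjusted p = 0.0101, and 0.0579 without AL replicates 4 and 5) and 0.74 in EOD (adjusted p = 0.00018). Acot8, a peroxisomal thioesterase acting on bile acid thioesters, rose in EOD by 1.23 over AL (adjusted p = 1.04e-05) and 1.02 over IF16 (adjusted p = 0.000176), and IF16 against AL gave 0.21 (adjusted p = 0.478).

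Acnat1 and Acnat2, acyltransferases next to Baat on chromosome 4 and close to it in sequence, rose with it in EOD over AL. Acnat1 went from 9.51 ± 0.868 to 23.9 ± 2.73 CPM (log2 fold change 1.33, adjusted p = 2.37e-05), and Acnat2 from 14.4 ± 3.93 to 56.0 ± 8.25 CPM (1.96, adjusted p = 0.00039; SD, n = 5). Reads shared by such close copies may be split between them, so these values are uncertain. The remaining genes past the threshold were singled out after their values were seen. Cyp2c70, which makes the muricholic acids of mice, was 94.6 CPM in EOD against 243 in AL and 191 in IF16, and fell in EOD against each (-1.36, adjusted p = 0.000822, and -1.01, adjusted p = 0.0133). AL replicates 4 and 5 were again the highest for Cyp2c70, at 363 and 352 CPM, and without them the fall from AL was -0.79 (adjusted p = 0.00451). Cyp2a12, which hydroxylates secondary bile acids again, fell by 0.34 on the log2 scale from AL (adjusted p = 0.011, and 0.118 without AL replicates 4 and 5) and by 0.38 from IF16 (adjusted p = 0.0123). Hsd17b6, a hydroxysteroid dehydrogenase, rose by 0.84 over AL (adjusted p = 0.00209), and Acox2, the side-chain oxidase, rose by 0.44 in EOD over IF16 (adjusted p = 0.0347), a call lost in 6 of 25 alternatives.

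Regulators of the pathway moved in both directions: of 23 tested, 4 rose and 7 fell in EOD against AL, 1 rose and 1 fell in IF16 against AL, and 3 rose and 2 fell in EOD against IF16. Of all tested genes, 17.6% rose and 17.6% fell in the first of these comparisons, 1.4% rose and 2.1% fell in the second, and 7.96% rose and 8.15% fell in the third. The genes of the feedback loop, Nr1h4, Nr0b2, Fgfr4 and Nr5a2, were singled out after their values were seen. Nr0b2, the gene of the repressor SHP, was 49.7, 31.2, 20.5, 12.7 and 40.8 CPM in AL replicates 1 to 5, 61.0, 40.9, 39.7, 55.5 and 40.3 CPM in IF16, and 72.6, 74.8, 49.5, 61.5 and 57.1 CPM in EOD. It rose 2.03-fold in EOD over AL (log2 fold change 1.02, SE 0.28, adjusted p = 0.0115), where the lowest EOD library lay just below the highest AL library. Nr1h4, which encodes FXR, was 121 ± 12.9 CPM in AL (SD, n = 5) and 97.7 ± 17.4 in EOD. It fell by 0.31 (adjusted p = 0.0467), a call lost in 17 of 25 alternatives, including that without AL replicates 4 and 5. Fgfr4, the receptor for FGF15, fell by 0.43 in EOD against AL (adjusted p = 0.00632), from 35.1 ± 2.30 to 26.1 ± 2.99 CPM. Klb, its coreceptor beta-klotho, rose by 0.61 (adjusted p = 0.00128), from 9.78 ± 0.669 to 14.9 ± 2.80 CPM. The EOD against AL calls of Nr0b2, Fgfr4 and Klb held in all 25 alternatives. Nr5a2, an activator of Cyp7a1 and Cyp8b1, did not pass in EOD against AL (0.31, adjusted p = 0.28) but did without AL replicates 4 and 5 (0.79, adjusted p = 0.00352), and passed in EOD against IF16 (0.66, adjusted p = 0.0479), a call lost in 10 of 25 alternatives.

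The list of regulators holds 8 genes tied to the circadian clock, a grouping made after their values were seen, and clock output genes such as Dbp drive a daily rhythm of Cyp7a1. In EOD against AL, 1 of the 8 passed as higher and 4 as lower, where 17.6% of all tested genes passed in each direction. The 3 that did not pass were Hlf (0.03, adjusted p = 0.909), Nr1d1 (-0.59, adjusted p = 0.173) and Nr1d2 (-0.32, adjusted p = 0.0965). Of the 8, Bhlhe41 alone passed in IF16 against AL and Bhlhe40 alone in EOD against IF16, both as lower. The shares of all tested genes called lower there were 2.1% and 8.15%. In IF16 against AL, Nr1d1 gave -1.22 (adjusted p = 0.0547), which passed in 7 of 25 alternatives. Dbp, an activator, was 90.2, 100.4, 85.4, 76.3 and 81.5 CPM in AL replicates 1 to 5, 63.1, 30.2, 21.2, 7.04 and 36.1 CPM in IF16, and 3.33, 8.67, 16.0, 16.2 and 14.3 CPM in EOD. Every EOD library lay far below every AL library, and the log2 fold change was -2.90 (SE 0.51, adjusted p = 0.000832). Every IF16 library also lay below every AL library. The difference of IF16 from AL did not pass (-1.46, adjusted p = 0.116), but it did in 2 of 25 alternatives. Tef, a related activator singled out after its value was seen, fell in EOD against AL as well (-0.83, adjusted p = 0.00167). Nfil3, which represses the sites that Dbp and Tef bind, rose by 1.44 (adjusted p = 0.00099). The repressors Bhlhe40 (-1.50, adjusted p = 0.00122) and Bhlhe41 (-2.67, adjusted p = 1.83e-05) fell in EOD against AL, and Bhlhe41 also fell in IF16 (-2.50, adjusted p = 0.00051). Since the hour of sampling and the time since the last meal are not given, regimen, clock time and fed state cannot be told apart. This holds for Cyp7a1, for these genes and for every other difference between groups given here. Ppara, the fasting receptor of the liver, was 24.99 ± 4.82 CPM in AL (SD, n = 5), 35.2 ± 1.51 in IF16 and 47.1 ± 3.29 in EOD. It rose in IF16 over AL (adjusted p = 0.0222), a call lost in 7 of 25 alternatives, including that without AL replicates 4 and 5. It also rose in EOD over AL (adjusted p = 1.93e-05) and in EOD over IF16 (adjusted p = 0.0178). Nr1h2, an oxysterol receptor singled out after its value was seen, fell by 0.40 in EOD against AL (adjusted p = 0.00714).

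**Figure D5:**
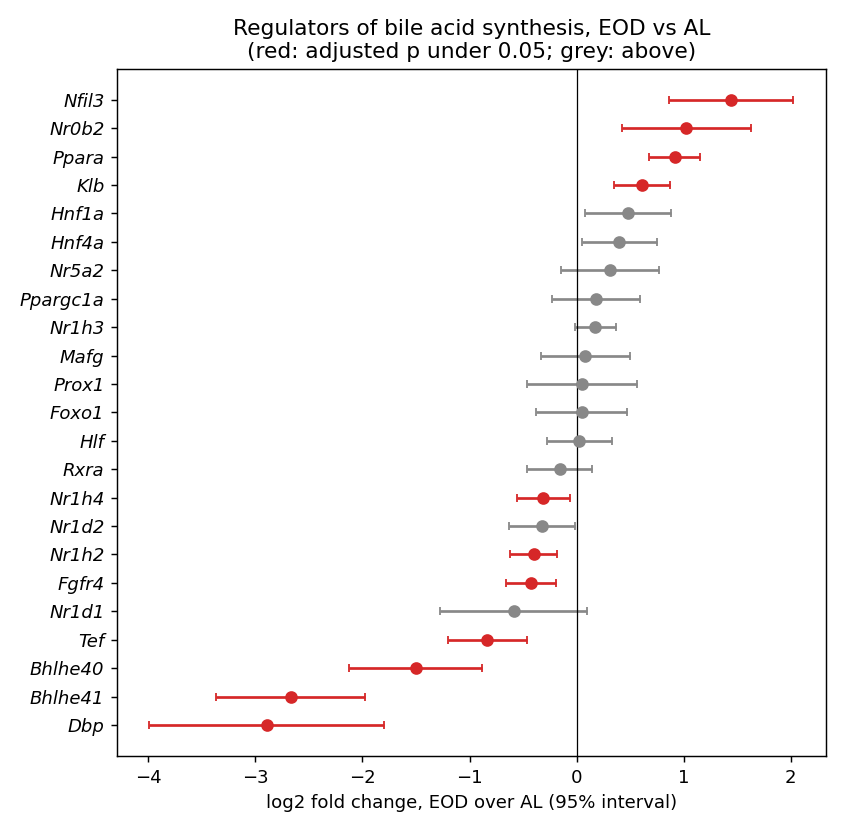
Log2 fold change of the 23 regulators in EOD against AL (x axis) with 95% intervals, ordered by size, with adjusted p under 0.05 in red and above in grey. Nfil3, Nr0b2, Ppara and Klb lie to the right, and Dbp at -2.90 and Bhlhe41 at -2.67 lie farthest to the left.

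Of 14 transporters of bile acids and biliary lipids, 12 were tested, and in EOD against AL 5 passed as higher and 1 as lower, with a median of 0.01, where 17.6% of all genes passed in each direction. The uptake carriers Slco1a4 and Slco1b2 rose, Slco1a4 from 27.0 ± 7.27 to 75.6 ± 17.3 CPM (log2 fold change 1.48, adjusted p = 1.68e-05) and Slco1b2 from 522 ± 85.1 to 940.2 ± 268 CPM (0.85, adjusted p = 0.00149; SD, n = 5). Slco1a4 rose in IF16 over AL as well (1.05, adjusted p = 0.00367). Abcb4, which delivers phosphatidylcholine to bile, rose from 159 ± 17.7 CPM in AL to 299 ± 32.8 in EOD (0.91, adjusted p = 2.21e-05). Abcc3, an exporter toward blood, rose by 0.67 (adjusted p = 0.000711). Abcb11, the bile salt export pump, was 357 ± 16.0 CPM in AL, 269 ± 34.3 in IF16 and 337 ± 35.1 in EOD (SD, n = 5). It fell in IF16 against AL (-0.41, adjusted p = 0.0327, lost in 11 of 25 alternatives, with 0.105 without AL replicates 4 and 5) and differed from AL in EOD by -0.08 (95% interval -0.30 to 0.13). Atp8b1, a lipid flippase of the canalicular membrane, fell in IF16 against AL (-0.44, adjusted p = 0.0481, lost in 17 of 25 alternatives, with 0.184 without AL replicates 4 and 5). Abcc2, lower in EOD than in AL (-0.42, adjusted p = 0.0278, lost in 8 of 25 alternatives), and Abcc4, higher (0.78, adjusted p = 0.0293, lost in 8 of 23 alternatives, with 0.141 without AL replicates 4 and 5), were singled out after their values were seen.

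Taurine for conjugation comes from cysteine, and 3 of the 4 tested genes of its supply rose in EOD over both AL and IF16, while none passed in IF16 against AL. The shares of all genes called higher were 17.6%, 7.96% and 1.4% in these comparisons. Cdo1, cysteine dioxygenase, was 1527 ± 144 CPM in AL (SD, n = 5), 1573 ± 393 in IF16 and 2179 ± 119 in EOD, and rose by 0.51 over AL (adjusted p = 0.00755) and 0.47 over IF16 (adjusted p = 0.0256, lost in 2 of 25 alternatives). Ado, cysteamine dioxygenase, rose by 0.55 over AL (adjusted p = 0.00358) and 0.46 over IF16 (adjusted p = 0.0214, lost in 3 of 25 alternatives). Csad, the decarboxylase that follows Cdo1, was 154 ± 45.8 CPM in AL, 114 ± 23.7 in IF16 and 246 ± 64.3 in EOD. It rose by 0.68 over AL (adjusted p = 0.0226, lost in 6 of 25 alternatives, with 0.118 without AL replicates 4 and 5, which were the lowest AL libraries at 111 and 105 CPM) and by 1.11 over IF16 (adjusted p = 0.00308). For the supply and handling of cholesterol, the substrate, 4 of 10 listed genes rose and 5 fell in EOD against AL, with a median of -0.87, against 17.6% of all genes in each direction.

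By likeness of log2 CPM over the 15 libraries (Pearson r, among 10746 protein-coding genes with a mean of at least 1 CPM), Cyp7a1 was closest to Ttc39c (r = 0.94) and Alg6 (r = 0.92). Mean Ttc39c levels were 289.6 CPM in AL, 284 in IF16 and 134 in EOD. Cyp8b1 was closest to Khdrbs3 (r = 0.93) and Aldh3a2 (r = 0.92), and Cyp27a1 to Pxn (r = 0.88) and Csnk1d (r = 0.87). Cyp7b1 was closest to C6 (r = 0.94) and Slc41a2 (r = 0.93), and Hsd3b7 to Ubxn1 (r = 0.94) and Cdo1 (r = 0.92). Akr1d1 was closest to Angptl6 (r = 0.91) and Decr2 (r = 0.90), Baat to Tmem59 (r = 0.97) and Ugt2b36 (r = 0.96), and Slc27a5 to Macrod2 and Galk1 (both r = 0.96). These values describe the same 15 libraries, include the differences between groups, and carry no test. They also include AL replicates 4 and 5, where Cyp7b1 was far above all other libraries (477 and 471 CPM), and were not computed without them.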

How the data were processed

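Liver mRNA was selected on poly-T beads and sequenced in 15 libraries, 5 per feeding group, grouped by the treatment label. The authors deposited whole-number read counts per gene and FPKM values, and the submitters' processing notes list STAR 2.5, HTSeq 0.6.1 and the build mm10 with no role. The sources used here give no strand mode, so overlapping and antisense genes may share counts. The deposited FPKM equal the count divided by gene length and library total in 100% of values (relative tolerance 1e-08).

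The count model was edgeR 4.0.16 (R 4.3.3): filterByExpr with a minimum count of 10 (13837 genes), TMM scaling, 1 fit over all 15 libraries with a mean per group, and the robust quasi-likelihood F test. All adjusted p-values are from this test with Benjamini-Hochberg adjustment over all tested genes at 0.05, unless another is named. The SE is the log2 fold change over the square root of F. The scripts were tested on simulated data.

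Alternatives were DESeq2 size factors, the DESeq2 1.42.0 Wald test, other filters, the 2 groups alone, a replicate block, each library left out, limma 3.58.1 on log2 FPKM, and, chosen after seeing the data, no AL replicates 4 and 5. The members and gene lists were chosen with earlier results of these data known. Of each list, the text names up to 6 genes past the threshold with the smallest p, and of each member the 2 most alike genes; genes outside this rule are marked as singled out after their values.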

Additional observations from a re-analysis of the deposited data

Results flagged for a closer look

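Of the 24 sets of 5 libraries formed by 8 members and 3 groups, 3 held a library that stood apart from the other 4 by a gap of more than 0.71 of the set's range. Chance alone gives this in about 1 in 20 sets. Cyp7a1 in AL replicate 3 was 72.4 CPM, with the nearest library at 46.8 CPM. Cyp7a1 in IF16 replicate 1 was 111 CPM, with the nearest at 49.1 CPM. Cyp7b1 in the same library, IF16 replicate 1, was 219.7 CPM, with the nearest at 139 CPM. The 2 high values in IF16 replicate 1 are both of enzymes that hydroxylate the sterol ring. Cyp8b1, which also does so, was 286 CPM in that library, within its group's range.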

How the results depend on the processing

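Each of the 24 differences of a member was recomputed under 25 alternatives. Of these 600 values, 548 kept direction and side of the threshold, 41 lost and 8 gained the call, and 3 changed sign, none of the latter being called in the main analysis. The sign changes were Cyp7b1 in EOD against AL (0.11 without AL replicates 4 and 5), Cyp7b1 in EOD against IF16 (-0.068 without EOD replicate 2, up to 0.35 with any other library left out) and Cyp7a1 in IF16 against AL (-0.15 without IF16 replicate 1, up to 0.40). Among the other named genes, sign changes were Bhlhe41 (0.25 without IF16 replicate 1, down to -0.36) and Cyp39a1 (-0.078 without EOD replicate 2, up to 0.13) in EOD against IF16, Acox2 in EOD against AL (0.035 without AL replicate 1, 0.0043 without EOD replicate 3, down to -0.13, and 0.022 without AL replicates 4 and 5), Hlf in EOD against AL (-0.028 without AL replicate 2, -0.0027 without AL replicate 4, -0.086 without EOD replicate 5, up to 0.13, and -0.016 without AL replicates 4 and 5), Hlf (0.022 without IF16 replicate 1, down to -0.19) and Nr1d2 (-0.0196 without IF16 replicate 4, -0.0047 without EOD replicate 3, up to 0.15) in EOD against IF16, and, in IF16 against AL, Cdo1 (-0.13 without IF16 replicate 4, up to 0.12, and -0.042 without AL replicates 4 and 5), Cyp2c70 (0.20) and Nr5a2 (0.11), the last 2 without AL replicates 4 and 5. The cause was not tested.

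The members past the threshold in IF16 against AL were 2 in the main analysis and 0 without AL replicates 4 and 5. They were 1 with DESeq2 size factors, no filter on low counts, the 2 groups alone, or limma on log2(FPKM + 1) with no filter. With a single library left out, they were 2 without EOD replicate 5 and 1 without AL replicate 1, AL replicate 2 or EOD replicate 3. They were 0 without any other library. They were 4 to 6 in EOD against AL and 1 to 4 in EOD against IF16 with any library left out. Over all genes, leaving out a library gave 241 to 619 calls in IF16 against AL (484 in the main analysis, 936 by the DESeq2 Wald test, 261 by limma with no filter), 3913 to 5726 in EOD against AL (4867) and 1418 to 3383 in EOD against IF16 (2229), the lowest without IF16 replicate 5 and the highest without EOD replicate 5.

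Whether replicate numbers pair the libraries is not settled by these values. Over 15 same-numbered pairs the correlation of deviations from the group means ran from -0.13 to 0.22, with 5 above 0.1. Its mean was 0.051, against -0.012 for pairs with different numbers. In 1 of 15 libraries, the best match in each of the other groups at once had the library's own number. With the replicate number as a block, 1 member passed in IF16 against AL (Slc27a5 lost, adjusted p = 0.0627), and Akr1d1 gained the call in EOD against AL (adjusted p = 0.0254). Depth does not limit the members, whose lowest count was 434.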
